A study of Mus musculus with 43 samples.

Results

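Kcnc1, Kcnc2 and Kcnc4 are 3 genes of the Kv3 family of voltage-gated potassium channels, and they were 3 of 56980 genes counted in sorted layer (L) 2/3 neurons of the mouse somatosensory cortex. They were chosen by gene name, as the set around Kcnc2, and Kcnc2 had been selected on its higher counts in both Cux1 KO groups at E19. For that reason the values of the 3 genes in Cux1 KO against WT at E19 are a description without a test, and the same holds for Kcnc2 in every other comparison that uses those WT E19 libraries (Cux2 KO against WT at E19, its difference between the sexes, WT females against males at E19, and WT P4 against E19).

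The study asked how the transcription factors Cux1 and Cux2 act on L2/3 neurons of females (L2/3F) and males (L2/3M) around birth. Neurons were labelled with GFP by in utero electroporation, sorted as GFP-positive cells and sequenced from low RNA input in 43 libraries. The labels give the strain C57BL/6JRccHsd for all libraries, and the mutant alleles were kept on that background. WT animals received a plasmid that expresses GFP (pCAG-GFP), at E19, P4 and P7. Cux2 KO animals were Cux2-/- in the germline and received the same plasmid, at E19 and P4. Cux1 KO animals at E19 carried the germline Cux1ΔC/ΔC alleles and also received pCAG-GFP. Cux1 KO at P4 was a different model: Cux1f/Δ23 animals received pCAG-iCre with the Cre-dependent pCALNL-GFP, so that only electroporated cells became Cux1Δ23/Δ23. WT and Cux2 KO cells did not receive Cre, and Cre and genotype cannot be told apart in the P4 Cux1 KO comparisons.

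There were 4 libraries in each of the 6 groups at E19 (WT, Cux1 KO and Cux2 KO, females and males). At P4 there were 3 WT and 3 Cux2 KO libraries of each sex and 2 Cux1 KO libraries, all from males. At P7 there were 2 WT female and 3 WT male libraries. Whether each library is a separate animal is not stated, so the p-values measure the spread between these libraries, which may be technical. E19 libraries had total counts of 13321095 to 20715732. The P4 libraries were deeper, with 19499125 to 60559585 counts, and the P7 libraries had 15312029 to 27633827. Levels are given as CPM, the counts scaled to a common library size after TMM normalisation. The E19 libraries were sequenced in a first round and the P4 and P7 libraries in a second, so stage and round cannot be told apart between E19 and P4.

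Kv3 channels open only at strongly depolarised membrane potentials and close fast on repolarisation, which keeps action potentials brief and lets neurons fire at high frequency. In the cortex they are best known from fast-spiking interneurons, where Kcnc1 and Kcnc2 are the main members. Kcnc4 gives a channel that inactivates rapidly and is often found in axons.

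Cux1 and Cux2 were read first as a check on the labels. In E19 females Cux1 was at 421, 491, 343 and 403 CPM in WT and at 291, 297, 304 and 341 CPM in Cux1 KO. In E19 males Cux1 was at 458, 360, 461 and 311 CPM in WT and at 367, 309, 335 and 364 CPM in Cux1 KO. The Cux1 KO females lay just below all WT females, and the males overlapped. Cux2 was at 445, 478, 369 and 500 CPM in WT E19 females and at 337, 279, 410 and 356 CPM in Cux2 KO E19 females. It was at 507, 413, 382 and 330 CPM in WT E19 males and at 383, 403, 268 and 343 CPM in Cux2 KO E19 males. Both sexes overlapped with WT. At P4 both genes were at lower values in every group. Cux1 was at 90.5, 161 and 107 CPM in WT P4 males and at 84.5 and 179 CPM in Cux1 KO P4 males. Cux2 was at 36.7, 35.8 and 27.9 CPM in WT P4 females and at 33.4, 28.9 and 51.6 CPM in Cux2 KO P4 females. In P4 males Cux2 was at 32.6, 32.2 and 49.7 CPM in WT and at 36.1, 62.1 and 35.3 CPM in Cux2 KO. These groups overlapped too. Cux2 was at 81.6 and 103 CPM in Cux1 KO P4 males, above all WT P4 males, and did not pass the edgeR test (log2 difference 1.26, SE 0.261, adjusted p = 0.0905). Counts over a whole gene include the parts outside the deletions, so they check nothing about the alleles, and the labels are taken as given.

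The Cux1 KO P4 libraries stood apart from the other P4 libraries. They held 17049 and 19115 genes with at least 1 count, against 20844 to 23736 in the other P4 groups. Of 4309 genes with a mean of 5 to 20 CPM over the P4 libraries, 650 (15.1%) were at 0 in Cux1 KO P4 male replicate 1 and 274 (6.36%) in replicate 2. WT P4 male replicate 3 had the next highest number, 65 (1.51%). Comparisons with the Cux1 KO P4 group rest on these 2 libraries.

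Kcnc1 (ENSMUSG00000058975) lies at chr7:46045674-46106392 on the plus strand, Kcnc2 (ENSMUSG00000035681) at chr10:112105226-112302929 on the plus strand and Kcnc4 (ENSMUSG00000027895) at chr3:107345603-107367781 on the minus strand of GRCm39. Kcnc1 overlaps Sergef on the opposite strand, 1 long non-coding gene and 1 small nuclear RNA gene. Kcnc2 overlaps 2 long non-coding genes, 1 of them on the opposite strand. The strand setting of the counting is not stated, so reads of Kcnc1 or Kcnc2 and of these partners cannot be told apart and the values of both genes are uncertain to that extent. Kcnc4 overlaps no annotated gene.

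In WT neurons at E19 Kcnc1 was the most abundant of the 3 genes per length of its exons, with 5.30 ± 0.454 CPM per kb (SD, n = 8). Kcnc2 followed with 1.79 ± 0.403 CPM per kb and Kcnc4 with 0.269 ± 0.0635 CPM per kb, each more than the summed SDs apart. At P4 Kcnc1 was at 1.23 ± 0.398 CPM per kb (SD, n = 6). Kcnc2 at 0.436 ± 0.236 CPM per kb and Kcnc4 at 0.378 ± 0.361 CPM per kb did not differ beyond their spread. At P7 the order of the means was Kcnc4 with 1.48 ± 1.10, Kcnc1 with 0.706 ± 0.167 and Kcnc2 with 0.553 ± 0.132 CPM per kb (SD, n = 5), and neighbours in that order lay within their spread.

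**Figure D1:**
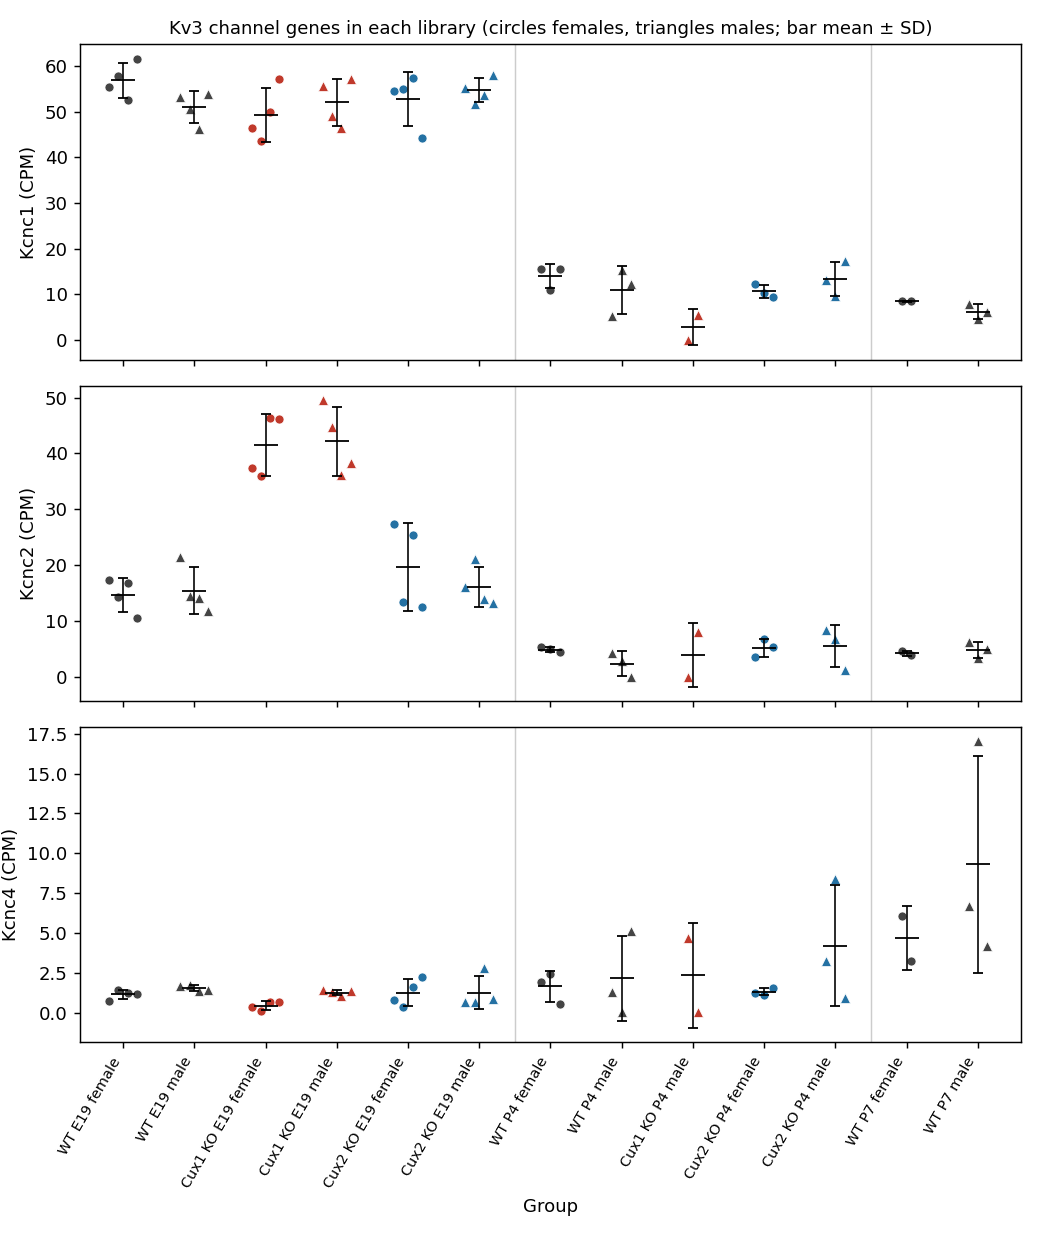
Level of Kcnc1, Kcnc2 and Kcnc4 in CPM (vertical axes) in each library (points) by genotype, stage and sex (horizontal axis), with bars for the group mean and SD. Kcnc2 in the 8 Cux1 KO E19 libraries lies between 36.0 and 49.6 CPM, above the other groups, and Kcnc1 drops from E19 to P4 in WT.

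At E19, Cux1 KO neurons of both sexes held more Kcnc2 than WT neurons, which is the value the set was chosen on. Kcnc2 was at 17.3, 14.4, 16.8 and 10.6 CPM in WT L2/3F and at 37.4, 36.0, 46.4 and 46.1 CPM in Cux1 KO L2/3F neurons. It was at 21.5, 14.6, 14.1 and 11.8 CPM in WT L2/3M and at 49.6, 44.7, 36.2 and 38.2 CPM in Cux1 KO L2/3M neurons. Every Cux1 KO library was above every WT library in both sexes. The log2 difference was 1.49 (SE 0.158, n = 4 and 4) in females and 1.42 (SE 0.177, n = 4 and 4) in males. Of all genes tested, 0.0576% (10 of 17376) passed the edgeR test in females and 0.0979% (17 of 17362) in males, and nothing about the members is read from these shares. A gene passed at an adjusted p under 0.05 with an absolute log2 difference over 0.5 at E19 and over 1 at P4 and P7.

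Kcnc1 and Kcnc4 did not follow Kcnc2 in Cux1 KO neurons at E19. Kcnc1 was at 55.4, 57.9, 52.6 and 61.6 CPM in WT L2/3F and at 46.5, 43.6, 50.0 and 57.3 CPM in Cux1 KO L2/3F neurons. It was at 53.2, 50.7, 46.3 and 53.9 CPM in WT L2/3M and at 55.6, 49.1, 46.4 and 57.2 CPM in Cux1 KO L2/3M neurons. The groups overlapped in both sexes, with a log2 difference of -0.21 (SE 0.102) in females and 0.01 (SE 0.0997) in males. Kcnc4 was low at E19, where the floor of 3 counts per library was 0.149 to 0.235 CPM. It was at 0.714, 1.44, 1.26 and 1.20 CPM in WT L2/3F and at 0.396, 0.124, 0.658 and 0.664 CPM in Cux1 KO L2/3F neurons. In males it was at 1.72, 1.72, 1.36 and 1.42 CPM in WT and at 1.44, 1.28, 1.04 and 1.35 CPM in Cux1 KO. The female groups were just apart, with WT the higher, and the male groups overlapped. The log2 difference of Kcnc4 was -1.31 (SE 0.505) in females and -0.30 (SE 0.322) in males, on 2 to 30 counts per library, and Cux1 KO female replicate 2 was under the floor. These values depended on the fit, with -0.19 and -0.10 under DESeq2's prior on fold changes. With both sexes in 1 fit a single value of -0.76 stood for both.

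In the lists of other channel, partner and fast-spiking genes no gene passed in Cux1 KO neurons at E19. None of 27 tested alpha subunits of other voltage-gated potassium channels passed in Cux1 KO L2/3F neurons (median log2 difference -0.20, against 0.01 for all genes) and none of 26 in Cux1 KO L2/3M neurons (median -0.07, against -0.01). None of the tested partners and regulators of Kv3, auxiliary subunits and genes of fast spiking passed in either sex. The edgeR count of genes at an unadjusted p under 0.05 was 1194 in females and 1798 in males, and DESeq2 called 47 and 113 genes. Among 22 tested interneuron markers Npy, a neuropeptide of interneurons, fell in Cux1 KO L2/3M neurons, from a mean of 35.3 to 14.2 CPM (log2 difference -1.33, SE 0.192, edgeR adjusted p = 0.0367). The call of Npy held in 2 of 8 fits with 1 library left out (without Cux1 KO replicate 1 or WT replicate 4) and was lost without any other library, with adjusted p up to 0.135 and log2 differences from -1.55 to -1.22. Without Cux1 KO E19 male replicate 4, or without WT E19 male replicate 2 or 3, no gene passed in that comparison. The summed interneuron markers ran from 518 to 1579 CPM in WT and from 527 to 1119 CPM in Cux1 KO libraries at E19, with Dlx1 the most abundant. In males 2 other lists were apart between Cux1 KO and WT, with 0 genes past the edgeR test in each. Microglia markers summed to 57.2 to 85.7 CPM in Cux1 KO and 98.0 to 126 CPM in WT (median log2 difference -0.84 over 9 genes), and oligodendrocyte markers to 398 to 619 and 629 to 781 CPM (median -0.46 over 10 genes). In females both lists overlapped. The WT males were the high group in both lists, above all WT females (75.9 to 95.9 CPM for microglia and 513 to 613 CPM for oligodendrocyte markers) and, for microglia markers, above all Cux2 KO males (68.8 to 97.6 CPM). The part of these markers in the Kcnc2 and Npy values was not tested. Fewer cells of a type and less RNA per cell cannot be told apart in these libraries.

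In Cux2 KO neurons at E19 the 3 genes overlapped with WT or lay on both sides of it. Kcnc2 in females and Kcnc1 and Kcnc4 in both sexes held values beyond the WT range. Kcnc2 was at 27.5, 13.4, 25.4 and 12.6 CPM in Cux2 KO L2/3F and at 16.1, 21.2, 14.1 and 13.3 CPM in Cux2 KO L2/3M neurons. The female libraries fell into 2 values above all WT females and 2 inside their range, and both sexes overlapped with the WT libraries, which are shared with the Cux1 KO comparisons. Kcnc1 was at 54.5, 55.0, 57.4 and 44.2 CPM in Cux2 KO L2/3F and at 55.3, 51.7, 53.7 and 58.0 CPM in Cux2 KO L2/3M neurons. These values overlapped with WT in both sexes, with 44.2 CPM below all WT females and 55.3 and 58.0 CPM above all WT males. Kcnc1 did not pass the edgeR test in females (log2 difference -0.11, SE 0.111, adjusted p = 0.977) or in males (0.08, SE 0.102, adjusted p = 0.894). Kcnc4 was at 0.781, 0.355, 1.64 and 2.26 CPM in Cux2 KO L2/3F and at 0.662, 0.713, 2.84 and 0.880 CPM in Cux2 KO L2/3M neurons. The females ran both below and above the WT females, and of the males 3 were below all WT males and 1 above them. Kcnc4 did not pass in females (0.14, SE 0.517, adjusted p = 0.986) or males (-0.32, SE 0.496, adjusted p = 0.917). Of all genes tested, 0.0287% (5 of 17436) passed in females and 0.121% (21 of 17332) in males.

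The Cux2 KO difference was also compared between the sexes. Neither Kcnc1 nor Kcnc4 passed at E19, where 0.00% of 18356 genes passed by edgeR (694 at an unadjusted p under 0.05, and 0 by DESeq2). The difference of the log2 values, females minus males, was -0.19 (SE 0.138, adjusted p = 0.979) for Kcnc1 and 0.45 (SE 0.748, adjusted p = 0.979) for Kcnc4. For Kcnc2 it was 0.38 (SE 0.360), as a description. At P4 none of the 3 genes passed. The difference there was -0.72 (SE 0.535, edgeR adjusted p = 0.777) for Kcnc1 and -1.11 (SE 1.75, adjusted p = 0.937) for Kcnc2. For Kcnc4 it was -1.32 (SE 1.73, adjusted p = 0.911). In this comparison 0.00% of 21878 genes passed by edgeR (1590 at an unadjusted p under 0.05, and 284 by DESeq2).

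Between the sexes in WT neurons none of the 3 genes passed at P4 or P7, and neither Kcnc1 nor Kcnc4 passed at E19. At E19, 0.0461% (8 of 17344) of all genes passed. Kcnc1 differed by 0.15 (SE 0.0996, adjusted p = 0.992) and Kcnc4 by -0.43 (SE 0.377, adjusted p = 0.992) on the log2 scale, females minus males. Kcnc2 differed by -0.08 (SE 0.210), as a description. At P4 Kcnc2 was at 5.43, 5.01 and 4.47 CPM in L2/3F and at 4.34, 2.93 and 0 CPM in L2/3M neurons, where the floor of the library at 0 was 0.0469 CPM. The female libraries were all above the male ones, and the lowest female and highest male values almost met. The share of all genes apart in this way is not given. Kcnc2 did not pass (log2 difference 1.06, SE 1.56, edgeR adjusted p = 0.936), and 0.00% of 19213 genes passed by edgeR (1398 at an unadjusted p under 0.05, and 238 by DESeq2). Sums of several lists were apart between the sexes at P4 too. Endothelial and mural markers (151 to 219 CPM in females, 344 to 562 CPM in males), oligodendrocyte markers (651 to 1916 and 2298 to 3239 CPM), Cajal-Retzius markers (27.7 to 60.8 and 118 to 147 CPM) and genes of fast spiking (149 to 292 and 362 to 382 CPM) were lower in females. Cell cycle genes (3109 to 4237 and 2202 to 2764 CPM) and Kv3 partners and regulators (2050 to 2652 and 1608 to 2043 CPM) summed higher in females. The median log2 difference was 0.43 for cell cycle genes and -0.051 for Kv3 partners and regulators. Of these partners Ckb alone had a mean of 915 CPM in females and 389 CPM in males. The part of these lists in the Kcnc2 values was not tested. At P7 Kcnc1 was at 8.61 and 8.46 CPM in L2/3F and at 7.96, 4.69 and 6.15 CPM in L2/3M neurons. The groups did not overlap, Kcnc1 did not pass (0.47, SE 0.343, adjusted p = 1.00), and 0.0247% (5 of 20271) of all genes passed. With so few libraries groups can lie apart by chance, and the share of all genes apart is not given. Sums of 4 lists were apart at P7 as well. Endothelial and mural markers (296 to 297 CPM in females, 418 to 1138 CPM in males) and erythroid markers (0.712 to 40.4 and 61.3 to 612 CPM) were lower in females, and immediate early genes (1724 to 2012 and 898 to 1697 CPM) and Kv3 partners and regulators (2346 to 3072 and 2084 to 2201 CPM) were higher. The median log2 difference was 0.63 for immediate early genes and 0.11 for Kv3 partners and regulators. Of these partners Ckb alone had a mean of 1470 CPM in females and 967 CPM in males. The part of these lists in the Kcnc1 values was not tested. Kcnc2 was at 4.66 and 4.02 CPM in P7 L2/3F and at 6.34, 3.38 and 5.03 CPM in P7 L2/3M neurons, with the female values inside the male range.

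Between E19 and P4 Kcnc1 fell in WT neurons. Its lowest, median and highest values were 46.3, 51.9 and 53.9 CPM in the 4 E19 males and 52.6, 56.6 and 61.6 CPM in the 4 E19 females. At P4 Kcnc1 was at 15.7, 11.04 and 15.5 CPM in females and at 5.23, 15.4 and 12.4 CPM in males. All 6 P4 libraries were below all 8 E19 libraries. Kcnc1 fell by 2.13 on the log2 scale (SE 0.199, edgeR adjusted p = 2.28e-07), in a comparison where 46.3% of 18585 genes passed (8609). With so many genes past the test, the call of Kcnc1 is not particular to it. Kcnc2 had a mean of 15.1 CPM at E19 and 3.70 CPM at P4, without overlap, as a description. Kcnc4 did not pass (log2 difference 0.48, SE 0.649, adjusted p = 0.527).

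Channel genes around Kv3 were called in both directions over the same step, in numbers to be read against the 46.3% of all genes that passed (4200 higher and 4409 lower). The shares of the 4 channel lists lay near that share, so the counts are not a result about these lists. Of 27 tested alpha subunits of other potassium channels 1 rose and 10 fell (median log2 difference -0.77, against 0.03 for all genes). Kcnh3 fell from 9.04 CPM to a mean of 0.0931 CPM, which is within the floors of 3 counts in the 6 WT P4 libraries (0.0469 to 0.133 CPM). Kcnh3 entered the test through the E19 libraries alone, so no fold or p is given. Of 8 tested partners and regulators of Kv3, 2 rose and 2 fell (median 0.13). Ank3, a scaffold of the axon initial segment, fell from 182 to 47.2 CPM (log2 difference -1.98, SE 0.153, adjusted p = 3.02e-08). Of 10 auxiliary subunits 2 rose and 3 fell (median -0.08), and Kcnip3 rose from 68.4 to 190 CPM (1.46, SE 0.103, adjusted p = 1.15e-08). Of 13 genes of fast spiking and the action potential 2 rose and 5 fell (median -0.96), and Nfasc fell from 285 to 70.6 CPM (-2.10, SE 0.233, adjusted p = 1.35e-06).

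Markers of cell types were called over this step too, beside the same 46.3% of all genes. Of 16 upper-layer and projection neuron markers 12 fell and none rose (median -2.95). Their summed level ran from 4835 to 6782 CPM in the 8 WT libraries at E19 and from 993 to 1297 CPM in the 6 at P4, where 15 or 16 of the 16 genes had counts. Slc17a7, a vesicular glutamate transporter, fell from 10.7 CPM to a mean of 0.0593 CPM, also within those floors. Slc17a7 too entered the test through the E19 libraries alone, so no fold or p is given. Of 12 astrocyte and radial glia markers 6 rose and 3 fell (median 1.25). Their sum was 2178 to 3193 CPM at E19 and 4664 to 7371 CPM at P4, with the glutamate transporter Slc1a3 the most abundant at P4. Interneuron markers (9 rose and 2 fell of 22, median 0.83), oligodendrocyte (6 and 1 of 10, median 1.62), endothelial and mural (8 and 0 of 10, median 2.38), erythroid (5 and 0 of 5, median 2.66), microglia (2 and 1 of 10, median 0.45), Cajal-Retzius (2 and 0 of 5, median 0.59), deep-layer (2 and 6 of 15, median -0.75), cell cycle (3 and 2 of 8, median 0.60) and immediate early genes (4 and 1 of 10, median 0.75) gave the other counts. The share of microglia markers was below that of all genes, and those of interneuron, Cajal-Retzius, deep-layer and immediate early genes were near it. The part of these markers in the fall of Kcnc1 was not tested.

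**Figure D2:**
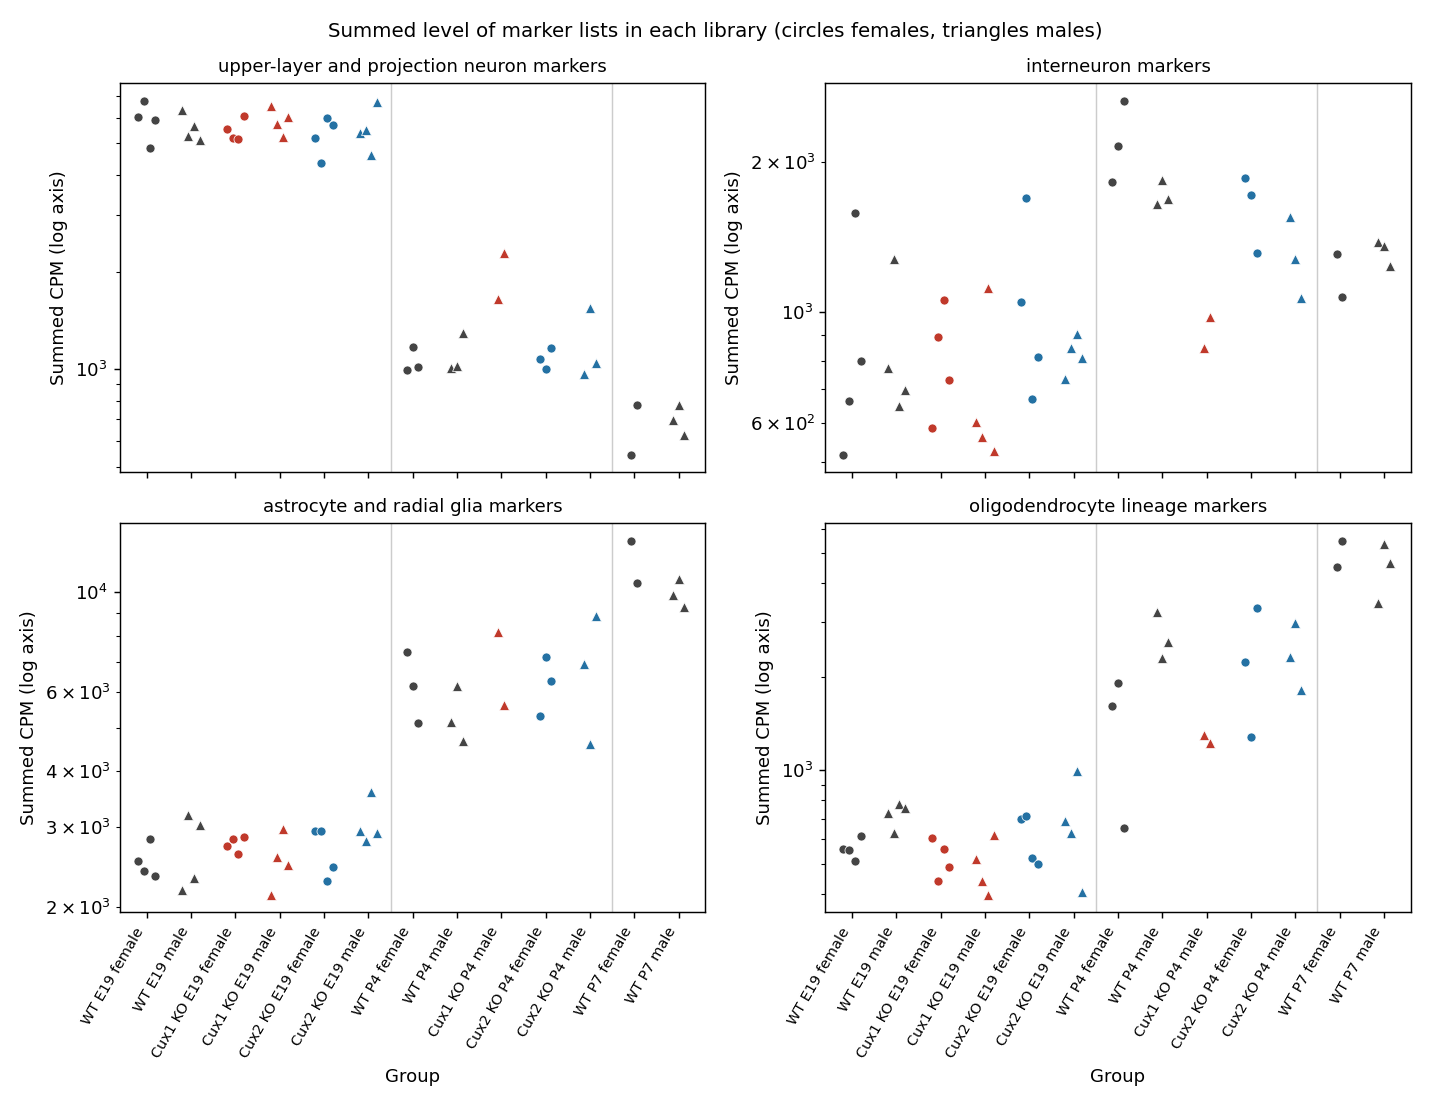
Summed CPM (vertical log axes) of 4 marker lists in each library (points) by genotype, stage and sex (horizontal axis). The upper-layer markers are between 4331 and 6782 CPM in the E19 libraries and at or below 2286 CPM later, while the astrocyte markers are at or above 9252 CPM at P7.

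From P4 to P7 none of the 3 genes passed the test in WT neurons, where 2.29% (480 of 20936) of all genes passed, or 239, 260 and 304 without WT P7 male replicate 2, WT P7 female replicate 2 and WT P7 female replicate 1. Kcnc4 was at 6.08 and 3.26 CPM in P7 females and at 6.71, 17.0 and 4.17 CPM in P7 males. In the WT P4 libraries Kcnc4 was at 1.97, 2.43 and 0.575 CPM in females and at 1.29, 0.0260 and 5.16 CPM in males. The highest P4 value overlapped with the lowest P7 values, and Kcnc4 missed the threshold (log2 difference 1.86, SE 0.868, edgeR adjusted p = 0.238). Kcnc1 had a mean of 7.17 CPM at P7 and 12.5 CPM at P4 (-0.75, SE 0.287, adjusted p = 0.148), and Kcnc2 4.69 and 3.70 CPM (0.51, SE 0.931, adjusted p = 0.816). Of 10 microglia markers 9 rose (median 3.16), and of 16 upper-layer markers 3 fell (median -0.50). Of 10 oligodendrocyte markers 4 rose (median 1.08), of 12 astrocyte and radial glia markers 3 rose (median 0.74) and of 15 deep-layer markers 2 fell (median -0.25). Of 24 interneuron markers 1 rose and 1 fell (median -1.12), of 8 cell cycle genes 1 fell (median -0.90) and of 10 immediate early genes 1 rose (median 1.05). No endothelial, erythroid or Cajal-Retzius marker passed by edgeR. The part of these markers in the Kv3 values was not tested. Nfasc, which holds sodium channels at the axon initial segment, rose to a mean of 157 CPM (1.22, SE 0.234, adjusted p = 0.0163).

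At P4 the 2 Cux1 KO male libraries lay far apart in each of the 3 genes, with 1 of the 2 at or near 0. Kcnc1 was at 0 and 5.58 CPM in Cux1 KO and at 5.23, 15.4 and 12.4 CPM in WT L2/3M neurons. Kcnc2 was at 0 and 8.05 CPM in Cux1 KO and at 4.34, 2.93 and 0 CPM in WT L2/3M neurons. Kcnc4 was at 4.69 and 0.0247 CPM in Cux1 KO and at 1.29, 0.0260 and 5.16 CPM in WT L2/3M neurons. All 3 overlapped between genotypes. None passed the edgeR test (log2 differences -2.01, SE 1.99, adjusted p = 0.637 for Kcnc1, 0.67, SE 2.82, adjusted p = 0.926 for Kcnc2 and 0.17, SE 2.39, adjusted p = 0.980 for Kcnc4). In this comparison 0.00% of 19601 genes passed, with 4021 genes at an unadjusted p under 0.05 and 3242 by DESeq2. A fit without 1 of the 2 Cux1 KO libraries leaves 1 in that group, so no calls from such fits are given. The upper-layer markers summed to 1654 and 2286 CPM in the 2 Cux1 KO libraries and to 1011, 1023 and 1297 CPM in WT males, and 0 of 16 passed by edgeR (median 1.35, against -0.18 for all genes). All 4 channel lists also summed higher in Cux1 KO without overlap, with 319 and 324 CPM against 227 to 272 CPM for other alpha subunits, 357 to 404 against 278 to 341 CPM for auxiliary subunits, 404 and 440 against 362 to 382 CPM for genes of fast spiking and 2408 to 2920 against 1608 to 2043 CPM for Kv3 partners and regulators. None of their genes passed by edgeR, and the medians were 0.55, 0.28, -0.03 and -0.01. Of the genes of fast spiking, Cplx1 alone had a mean of 126 CPM in Cux1 KO and 24.2 CPM in WT males. Of the Kv3 partners, Ckb alone was at 922 and 389 CPM. Sums of 5 lists of other cells were lower in the Cux1 KO libraries. The interneuron markers summed to 848 and 976 CPM in Cux1 KO and to 1651, 1845 and 1692 CPM in WT males, and 0 of 24 passed (median -2.49, or -2.42 with 3 genes at 0 set to their bound). The oligodendrocyte markers summed to 1302 and 1224 CPM against 2298 to 3239 CPM (0 of 10 passed, median -1.25), and the endothelial and mural markers to 0.204 and 92.1 CPM against 344 to 562 CPM (0 of 10 passed, median -5.24). Microglia markers summed to 38.2 and 29.6 CPM against 73.3 to 126 CPM (0 of 9 passed, median -0.89), and Cajal-Retzius markers to 0.408 and 102 CPM against 118 to 147 CPM (0 of 6 passed, median -1.64). The last 4 medians were the same with genes at 0 set to their bound, and each of these sums was apart from WT without overlap. The part of these markers in the Kv3 values was not tested.

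None of the 3 genes passed the test in Cux2 KO neurons at P4. Kcnc1 was at 12.2, 10.4 and 9.42 CPM in Cux2 KO L2/3F and at 13.1, 9.77 and 17.3 CPM in Cux2 KO L2/3M neurons. Kcnc2 was at 3.57, 6.82 and 5.38 CPM in Cux2 KO L2/3F and at 8.49, 6.80 and 1.30 CPM in Cux2 KO L2/3M neurons. Both genes overlapped with WT in each sex. Kcnc4 was at 1.27, 1.15 and 1.56 CPM in Cux2 KO L2/3F and at 3.27, 8.40 and 0.962 CPM in Cux2 KO L2/3M neurons. By edgeR 0.00% of 19538 genes passed in females and 0.00% of 19720 in males, with 1443 and 1136 genes at an unadjusted p under 0.05 and 179 and 362 by DESeq2. The log2 difference of Kcnc1 was -0.39 (SE 0.238, adjusted p = 0.746) in females and 0.33 (SE 0.459, adjusted p = 0.999) in males. For Kcnc2 it was 0.097 (SE 0.342, adjusted p = 0.967) in females and 1.20 (SE 1.67, adjusted p = 0.999) in males. Kcnc4 gave -0.31 (SE 0.674, adjusted p = 0.944) in females and 1.02 (SE 1.50, adjusted p = 0.999) in males. The SEs were larger than the differences for all 3 genes in males and for Kcnc2 and Kcnc4 in females, so these differences are imprecise. The size of a difference that these libraries could detect was not tested. Endothelial and mural markers summed to 420 to 536 CPM in Cux2 KO and 150.5 to 219 CPM in WT females. In males interneuron markers (1068 to 1550 CPM in Cux2 KO, 1651 to 1845 CPM in WT) and Cajal-Retzius markers (35.2 to 100.4 and 118 to 147 CPM) were apart. The sums of the 3 members were apart too, in opposite directions. They were 16.4 to 18.4 CPM in Cux2 KO and 18.5 to 23.05 CPM in WT females. In males they were 19.6 to 25.0 CPM in Cux2 KO and 10.9 to 18.3 CPM in WT. The other lists overlapped, and the part of the markers in the Kv3 values was not tested.

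Between the KO genotypes at P4, Kcnc1 was lower in both Cux1 KO male libraries (0 and 5.58 CPM) than in the 3 Cux2 KO male libraries (13.1, 9.77 and 17.3 CPM). The groups did not overlap, in a comparison where 2.98% (589 of 19741) of all genes passed, and Kcnc1 did not pass (log2 difference -2.34, SE 1.87, edgeR adjusted p = 0.505). Here too the share of all genes apart is not given. Without Cux1 KO P4 male replicate 2 the remaining Cux1 KO library was at 0, so that the fitted difference of Kcnc1 is no bound. The count of genes that passed went to 0 without any 1 of the 3 Cux2 KO libraries. Fits without 1 of the Cux1 KO libraries leave 1 in that group, whose spread they cannot measure, so no calls from them are given. Kcnd1, a subunit of the A-type current, was at 0 in both Cux1 KO libraries and had a mean of 3.49 CPM in Cux2 KO, at least 30.7-fold higher against a floor of 3 counts per library. It was the only one of 27 other alpha subunits that passed (edgeR adjusted p = 0.0491). Its call was lost without any 1 of the 3 Cux2 KO libraries (adjusted p up to 0.135). No gene of this comparison passed without a filter on low counts or with a replicate block. At 0 in both Cux1 KO libraries, Kcnd1 entered the test through the Cux2 KO group alone. Of 10 microglia markers 3 fell (median -2.50, against -0.16 for all genes). The interneuron markers summed to 1550, 1281 and 1068 CPM in Cux2 KO males, above both Cux1 KO libraries, and the endothelial and mural markers to 282, 631 and 271 CPM, also above both. Oligodendrocyte markers (1818 to 2980 CPM in Cux2 KO) and microglia markers (117 to 205 CPM) were above both as well, while upper-layer markers (965 to 1548 CPM) and other alpha subunits (176 to 255 CPM) were below both. The part of these markers in the Kcnc1 values was not tested.

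Across the 24 E19 libraries the genes whose log2 CPM was most like a member's were named by Pearson r, as a description over libraries that share genotype groups. For Kcnc1 these were Srgap3 (r = 0.827), Acvr1b (0.817) and Castor2 (0.790). For Kcnc2 they were 4933404O12Rik (0.879), Zfp811 (0.856) and Plod3 (0.847), and after the group means were taken off r was 0.494, 0.395 and 0.444. For Kcnc4 they were Prkg2 (0.770), Bin3 (0.739) and Zfhx2os (0.711). Across the 14 P4 libraries they were Nek2 (0.987), Plxnb2 (0.986) and Tfdp2 (0.985) for Kcnc1. They were 1110020A21Rik (0.967), Zfp661 (0.961) and Spsb2 (0.961) for Kcnc2 and Sv2a (0.909), Galntl6 (0.891) and Vangl1 (0.856) for Kcnc4. The P4 values of Kcnc1 and Kcnc2 include libraries at 0, and the weight of these libraries in r was not tested. Spearman's rho at P4 was 0.8725, 0.6615 and 0.8242 for the 3 genes next to Kcnc1. For the 3 genes next to Kcnc2 it was 0.741, 0.560 and 0.684.

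The genes around the members in the genome were followed in the 7 comparisons of a KO with WT. Within 500000 bases there were 24 protein-coding genes near Kcnc1, 7 near Kcnc2 and 18 near Kcnc4. Of these 14 or 15, 3 to 6 and 12 were tested, depending on the comparison, and at E19 only 3 of the 7 near Kcnc2. Abcc8, near Kcnc1, passed in Cux1 KO L2/3M neurons at E19 (log2 difference 0.82, SE 0.132, edgeR adjusted p = 0.0401), and no other tested neighbour passed in any of the 7 comparisons. Of all genes 0.0287% to 0.121% passed in the 4 comparisons at E19 and 0.00% in the 3 at P4, so nothing about the neighbours is read from these counts. Abcc8 did not pass without any 1 of the 8 libraries (adjusted p from 0.0663 to 0.150). Of the 2 protein-coding genes next to Kcnc2, Caps2 on the lower side had a mean of 2.18 CPM in Cux1 KO and 1.52 CPM in WT females at E19 (log2 difference 0.52, SE 0.446, adjusted p = 0.838). In males it had 2.41 and 0.904 CPM (1.38, SE 0.430, adjusted p = 0.304). The male groups of Caps2 did not overlap and the female groups did, and neither passed. In Cux2 KO E19 males Caps2 had 1.83 CPM against 0.904 CPM in WT (1.00, SE 0.466, adjusted p = 0.630), where Kcnc2 differed by 0.04. At P4 Caps2 was at 0 in both Cux1 KO male libraries and at 2.64 to 13.7 CPM in WT males, without overlap, and did not pass (adjusted p = 0.0840). Caps2 entered that test through the WT libraries alone. In the other 3 comparisons its groups overlapped. Atxn7l3b, on the higher side and farther away, differed by -0.11 in both sexes (SE 0.0814 and 0.0712).

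The promoter of Kcnc2 is shown because Cux proteins are known to bind DNA motifs of the CCAAT and ATCGAT kind and Kcnc2 is the member that was high in Cux1 KO neurons. RefSeq promoter windows (250 bases before to 50 after a start, build GRCm38.p6) matched all 3 genes. Each motif was searched on both strands. The motif ATCGAT was held by 0.925% of 32851 promoters, its variant ATCAAT by 7.54% and the motif CCAAT by 37.4%. Kcnc2 has 4 windows, 3 of them with CCAAT, and 2 of those 3 nearly coincide. No window of Kcnc1 or Kcnc4 held any of the 3 motifs, and none of Kcnc2 held ATCGAT or ATCAAT. The first lies at chr10:112269767-112270066 and the other at chr10:112270871-112271170, both on the plus strand, and capitals mark CCAAT on the other strand, read as ATTGG. A match is a description of these letters only.
Kcnc2 first start: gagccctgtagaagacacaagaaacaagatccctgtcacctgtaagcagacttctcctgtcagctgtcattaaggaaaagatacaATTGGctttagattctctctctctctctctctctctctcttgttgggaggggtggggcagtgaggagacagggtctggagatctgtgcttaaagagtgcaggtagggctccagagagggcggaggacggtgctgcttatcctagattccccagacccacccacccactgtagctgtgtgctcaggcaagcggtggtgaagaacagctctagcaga
Kcnc2 later start: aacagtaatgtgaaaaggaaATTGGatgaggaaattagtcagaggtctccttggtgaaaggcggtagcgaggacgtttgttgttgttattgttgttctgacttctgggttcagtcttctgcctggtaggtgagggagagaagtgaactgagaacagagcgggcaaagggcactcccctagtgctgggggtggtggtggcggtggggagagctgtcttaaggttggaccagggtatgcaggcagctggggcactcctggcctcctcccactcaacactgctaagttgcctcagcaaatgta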

How the data were processed

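Per the deposited table, the values are raw counts per gene, which the authors made from 60-nucleotide single-end reads by alignment to GRCm39 with removal of heavily repeated reads and counting on genes. No unique molecular identifiers were used, so floors cover counting error only. The counts of 43 libraries were grouped by the labels into genotype, stage and sex. Cux1 KO neurons were more fragile during dissociation, per the authors, and there were no Cux1 KO females at P4 and no KO at P7. No library pair was identical. The members and the gene lists were chosen with earlier results of these data known.

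Each comparison used edgeR 4.0.16 in R 4.3.3 with TMM normalisation, filterByExpr and the quasi-likelihood test (glmQLFit and glmQLFTest), with Benjamini-Hochberg adjustment over all genes tested. Genes passed at an adjusted p under 0.05 when the log2 fold change was also beyond 0.5 in either direction (E19) or beyond 1 (P4 and P7), and differences between sexes in the KO effect needed the adjusted p alone. Stages were compared in WT with sex as a term. The script was tested on simulated counts. Lengths came from GENCODE M39, where 56236 of 56980 identifiers were found. Log2 CPM for correlations used a prior count of 2 (pandas 2.3.3). The floor was 3 counts per library. Groups whose values did not overlap are named as a description, without the share of all genes or lists that lie apart. Genes were named by a rule: the members, Cux1 and Cux2, the 3 genes most like each member, the genes of each list that passed the test up to a limit, the most abundant gene of each list and the nearest neighbours. Some genes that this rule takes are not reported here. Lists were Kv3 partners and regulators, other potassium channel alpha subunits, auxiliary subunits, genes of fast spiking, and markers of interneurons, upper-layer, deep-layer and Cajal-Retzius neurons, astrocytes, oligodendrocytes, microglia, endothelial, erythroid and cycling cells and immediate early genes.

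Alternatives were DESeq2 1.42.0 with and without its prior on fold changes, edgeR with the size factors of DESeq2, all genes without the expression filter, the adjusted p alone, all groups in 1 fit, both sexes in 1 fit, a replicate block, each library left out, the longest transcript as length, Spearman's rho and deviations from group means.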

Additional observations from a re-analysis of the deposited data

Results flagged for a closer look

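Kcnc4 was at 2.84 CPM in Cux2 KO E19 male replicate 3, far above the other 3 libraries of that group, which were at 0.662 to 0.880 CPM. The gap to the nearest of them made up 0.9002 of the whole range of the group. This library was picked from 18 sets of a group and a gene, and how often chance gives such a gap was not computed.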

How the results depend on the processing

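With DESeq2's size factors in edgeR and without a filter on low counts (45 values each), no tested log2 difference of a member changed sign. Those given as a description moved by less than the SD within their groups. The same held in 1 fit of all groups, which covered 42 values. No member gained or lost a call in these fits. In Cux1 KO E19 females and males DESeq2's prior gave 1.05 and 1.00 for Kcnc2 in place of 1.49 and 1.42, and -0.19 and -0.10 for Kcnc4 in place of -1.31 and -0.30. With both sexes in 1 fit a single value stood for both. It was -0.76 for Kcnc4 in Cux1 KO at E19, in place of -1.31 in females and -0.30 in males. The sign was reversed for Kcnc4 in Cux2 KO E19 females (-0.093) and Kcnc1 in Cux2 KO E19 males (-0.013). It was also reversed for Kcnc4 in Cux2 KO P4 females (0.37) and Kcnc1 in Cux2 KO P4 males (-0.028). Per kb of the longest transcript, Kcnc1 was at 6.73 (E19) and 0.896 (P7) and Kcnc2 at 2.22 and 0.689 CPM. Of the 3 genes most like a member, Spearman's rho shared 0 for Kcnc2 at E19, 1 for Kcnc4 at E19, 0 for Kcnc1 and Kcnc2 at P4 and 1 for Kcnc4 at P4, and deviations from group means shared 1 for Kcnc1 and 0 for Kcnc2 at E19, 0 for Kcnc1 and Kcnc2 and 1 for Kcnc4 at P4. The cause was not tested.

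With 1 library left out (98 fits), log2 differences ran from -0.037 to 0.053 for Kcnc1 in Cux1 KO E19 males, from 0.22 to 0.58 and from -0.11 to 0.25 for Kcnc2, from -0.14 to -0.037 and from 0.035 to 0.12 for Kcnc1 and from -0.29 to 0.44 and from -1.05 to -0.088 for Kcnc4 in Cux2 KO E19 females and males, from -11.92 to -1.02 for Kcnc1, -9.77 to 1.66 for Kcnc2 and -6.32 to 1.89 for Kcnc4 in Cux1 KO P4 males, from 0.0018 to 0.68 for Kcnc1, 0.62 to 1.93 for Kcnc2 and 0.056 to 2.67 for Kcnc4 in Cux2 KO P4 males, from -0.15 to 0.32 for Kcnc2 and -0.71 to 0.047 for Kcnc4 in Cux2 KO P4 females, between WT sexes from 0.0996 to 0.19 for Kcnc1, -0.19 to 0.13 for Kcnc2 and -0.56 to -0.26 for Kcnc4 at E19, from 0.077 to 0.75 for Kcnc1, 0.48 to 1.78 for Kcnc2 and -0.89 to 1.35 for Kcnc4 at P4, from 0.29 to 0.68 for Kcnc1, -0.37 to 0.074 for Kcnc2 and -1.48 to -0.20 for Kcnc4 at P7, from 0.13 to 0.78 for Kcnc2 in WT P7 against P4, and from -0.19 to 0.74 for Kcnc4 in WT P4 against E19. In Cux1 KO against Cux2 KO P4 males they ran from -11.90 to -1.36 for Kcnc1, from -10.62 to 0.45 for Kcnc2 and from -7.32 to 0.14 for Kcnc4. Fitted values against libraries at 0 are no bounds. A lone library was assumed to vary like the other groups. The interactions with 1 library left out were not run.

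Replicate numbers are shared by the groups, but no comparison with 3 or more numbers had every residual correlation over 0.1 (pairing check, -0.143 to 0.312). In none did every library correlate best with its own number. In Cux1 KO against WT females at E19, 6 of 8 libraries did so, with correlations from 0.023 to 0.0944. WT females against WT males at P7 shared only replicate numbers 1 and 2, with residual correlations of 0.194 and 0.272, both over 0.1. With a replicate block the value was -0.032 for Kcnc4 in Cux2 KO E19 females, -2.84 for Kcnc2 in Cux1 KO P4 males, 0.85 for Kcnc4 between WT sexes at P4 and -0.13 for Kcnc4 in WT P4 against E19. The block gave 45 genes in place of 17 (Cux1 KO E19 males), 10 in place of 21 (Cux2 KO E19 males), 0 in place of 5 (WT sexes at P7), 147 in place of 480 (WT P7 against P4) and 0 in place of 589 (Cux1 KO against Cux2 KO P4 males).

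Counts of genes past the test moved most with the other settings. In Cux1 KO E19 females 10 became 47 (DESeq2), 29 (its prior), 63 (no filter), 43 (both sexes) and 2 to 30 with 1 library left out. In Cux1 KO E19 males 17 became 113, 73, 91, 43 and 0 to 16, and 5 with all groups. In Cux2 KO E19 females 5 became 30, 22, 46, 18 and 3 to 14, and 8 with all groups. In Cux2 KO E19 males 21 became 93, 66, 63 and 9 to 19. In Cux1 KO P4 males 0 became 3242 (DESeq2), 2273 (its prior) and 2597 (all groups). In Cux2 KO P4 females 0 became 179, 42 and 1, and in males 362, 75 and 4, with 11 for both sexes. Between WT sexes 8 became 13 at E19 (DESeq2), 0 became 238, 85 and 7, and 5 without a filter, at P4, and 5 became 75, 12 and 0 to 3 with 1 library left out at P7. In WT P7 against P4 480 became 1187 (DESeq2), 1595 (all groups) and 1333 (adjusted p alone). In Cux1 KO against Cux2 KO P4 males 589 became 3370, 2617 and 2021, and 0 without a filter. At E19 depth limits Kcnc4, with 2 to 40 counts per library. At P4, WT male replicate 3, at 0 for Kcnc2, had the highest total of all 43 libraries (60559585), and the libraries with 1 count of Kcnc4 had totals of 35891853 and 40421655.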
